A study of Mus musculus with 46 samples.

Results

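E007 and E008 are neighbouring candidate cis-regulatory elements (cCREs, stretches of DNA with marks of regulatory activity) of the mouse Klf2 locus. In mm10 coordinates E007 spans chr8:71922525-71922975 and E008 spans chr8:71922906-71923356, so each covers 450 bp and they share 69 bp. All constructs that carry either fragment were taken, which gave 1133 of the 91657 constructs measured. Of these, 1089 came from the Upstream assay, which holds 19789 constructs of the Klf2 locus, and 44 came from the Downstream assay, which holds 2364. The pair was selected on a measured value, the mean boost index of the Downstream assay, where E007 ranked 1st and E008 3rd of 80 cCREs. The Downstream levels are therefore given as a description, and only Upstream values and contrasts between strands were tested.

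The measurements are massively parallel reporter assays, in which each plasmid carries a barcode that is transcribed with the reporter. The activity of a construct is the ratio of its barcodes in reporter RNA (cDNA) to those in the plasmid pool (pDNA). The cells were E14TG2a, an established line of mouse embryonic stem cells, grown in the 2i+LIF medium, and plasmids were introduced transiently by nucleofection with RNA taken 24 h later. Each library mix had 3 biological replicates, which are transfections of the same plasmid pool. The Klf2 Upstream libraries were transfected together with the Nanog and negative control libraries, and the Downstream libraries formed a mix of their own. No group differed in genotype or treatment, so all comparisons are between constructs within the same transfected cells. In the Upstream assay 1 or 2 fragments lie in front of the reporter: a cCRE before a promoter, a promoter before a cCRE, or a pair of cCREs. In the Downstream assay 1 fragment lies behind a reporter that is driven by 1 of 10 promoters of the locus or by none. Constructs are written in the order of their fragments with the orientation given in the tables, so that E007+P016+ is E007 followed by promoter fragment P016, both in plus orientation. The numbers of reads and barcodes behind each activity are unknown here, so the spread over replicates is the only error given.

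Enhancers and promoters are both bound by transcription factors, and many promoters can act as enhancers of other promoters when they are placed near them. A promoter starts transcription mainly in one direction, whereas an enhancer is classically defined as acting in either orientation and from a distance. Zfp617 encodes a zinc finger protein and lies among other zinc finger genes of the locus (Zfp882 and Zfp961), and Klf2 encodes a transcription factor of the pluripotency network.

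The RefSeq annotation of GRCm38.p6 (mm10) places Zfp617 on the plus strand of chromosome 8, from 71922825 to 71934630. The label of both fragments as lying in Zfp617 therefore needs a qualification, since the annotated start of the gene lies inside E007, 300 bp after the fragment begins. E008 begins 81 bp after the gene start. Among the 86 cCREs of the locus only 3 hold a RefSeq gene start, as against 18 of the 23 promoter fragments. The bases of E007 just before the gene start are shown because the fragments differ in them: E007 holds them and E008 does not. They are chr8:71922575-71922824, plus strand, 5′ to 3′, from RefSeq promoter sequences, and the capitals mark matches to a list of motifs.

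E007 before the Zfp617 start: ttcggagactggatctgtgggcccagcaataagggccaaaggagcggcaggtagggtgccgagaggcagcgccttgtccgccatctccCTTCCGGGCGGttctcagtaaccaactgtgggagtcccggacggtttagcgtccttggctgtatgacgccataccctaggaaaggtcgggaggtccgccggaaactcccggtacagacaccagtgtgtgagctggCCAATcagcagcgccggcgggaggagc

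The first run of capitals joins an ETS match (CCGGAAG, on the minus strand, 162 bases before the start) to an overlapping GC box of the Klf and Sp factors (GGGCGG, 157 bases before the start). The second run is CCAAT, 27 bases before the start. Both strands were searched over the window of 300 bases that ends 50 bases after the start. That window also held a YY1 match (AAGATGGC, minus strand, 16 bases after the start) and the CTCF core letters CCCTC, 38 bases after it. Of 32851 such windows in the mouse annotation, 35.7% held the GC box, 8.86% the ETS letters, 37.4% CCAAT, 2.75% the YY1 letters and 66.0% CCCTC. No match was found there for the letters searched for Oct4, Sox2, Esrrb, Klf (GGGTGTGG and its reverse complement), Tfcp2l1, Stat3, Zfx, NRF1, CRE, AP-1 or TATA. GC content of the window was 62.3%, against a median of 52.7% over all windows. The window held 21 CpG sites against a median of 7, and 24.8% of all windows held as many. No RefSeq promoter window overlapped E008, and its sequence was not analysed here.

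Placed alone in front of the reporter, E007 was active in both orientations and E008 was near the level of a typical cCRE. E007+ gave activities of 9.07, 9.31 and 7.57 in replicates 1, 2 and 3, and E007- gave 1.79, 1.81 and 1.72. E008+ gave 0.185, 0.138 and 0.328, and E008- gave 0.166, 0.0993 and 0.317. The median over 165 oriented cCREs alone was 0.120. All E007 values lay above all E008 values, and the orientations overlapped for E008 but not for E007.

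E007+ exceeded E007- by 2.28 ± 0.13 on the log2 scale (SD, n = 3), or 4.86-fold. It exceeded E008+ by 5.41 ± 0.80, and E007- exceeded E008- by 3.35 ± 0.87. For each of these 3 differences a two-sided exact permutation test over 3 against 3 values gave p = 0.10, the smallest it can give. The strands of E008 differed by 0.23 ± 0.22 (exact p = 0.70). The mean of E007+, 8.61, ranked 1st among the 165 oriented cCREs and 4th among 211 oriented fragments of any kind. Only the promoter fragments P022+, P017+ and P003+ were higher, from 18.6 for P022+ to 8.83 for P003+. P003+ holds the Zfp961 start and P017+ that of Gm46043, whereas P022+ is the reverse of the fragment that starts Smim7. The other cCREs that hold a gene start had means of 0.631 (E030, Gm39196) and 0.161 (E073, Calr3) in the direction of their gene, here the minus orientation.

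Placed before a promoter, E007 gave more activity than the promoter alone in every pair measured, with a median log2 difference of 1.92 over 57 pairs. In limma with Benjamini-Hochberg adjustment over the 3685 such pairs of the locus, 48 of the 57 were higher and 0 lower. Over the whole locus 4.1% of pairs were called higher and 12% lower, with a median difference of -0.28. By orientation the counts were 38 of 45 pairs for E007+ and 10 of 12 for E007-. E008 raised 7 of 89 pairs and lowered 0, with a median of 0.22. With the replicate number as a block, E008 raised 13 of 89, where 6.62% of all pairs were called higher, and E007 raised 51 of 57. Leaving out replicate 1, 2 or 3 left 0 calls for either fragment and 0 among all 3685 pairs of the locus. At an unadjusted p under 0.05, limma then had 43, 49 and 53 of the E007 pairs and 6, 8 and 15 of the E008 pairs, where 13.8%, 16.8% and 32.7% of all pairs passed in either direction. With all replicates 53 and 14 passed, and 30.8% of all pairs.

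The highest boost index before a promoter, which sets the log2 activity against that of the median pair sharing this promoter and its orientation, was that of E007+P002+. P002 begins just behind the fragment of the Zfp882 start and was weak alone. This construct gave 7.76, 8.91 and 6.67, which was 5.55 above P002+ alone on the log2 scale (SE 0.39, limma, adjusted p = 0.00638) and a boost index of 5.66 ± 0.99 (SD, n = 3). E007-P002+ gave 2.71, 3.20 and 2.43, with a boost index of 4.18 ± 0.98. With the Klf2 promoter, E007+P016+ gave 8.29, 10.7 and 9.15, against 1.37, 1.20 and 1.49 for P016+ alone. These ranges did not overlap, and the difference was 2.79 (SE 0.16, limma, adjusted p = 0.00638). E007+P016- gave 1.70, 1.63 and 2.05 and lay 2.94 above P016- alone (SE 0.38, limma, adjusted p = 0.0123).

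Strong promoters were among those with the smallest differences. E007+P003+ gave 11.3, 14.4 and 9.19, a log2 difference of 0.37 from P003+ alone (SE 0.21, limma, adjusted p = 0.33). E007-P017+, with the fragment that starts Gm46043 in this orientation and Eps15l1 in the other, gave 18.2, 20.0 and 14.8, a difference of 0.33 (SE 0.17, adjusted p = 0.29 in limma). E007-P021-, with the promoter of Med26, a subunit of Mediator, gave 10.1, 11.4 and 9.36 and missed the threshold (difference 0.59, SE 0.14, limma, adjusted p = 0.0501). The strongest of all these constructs was E007+P022+, at 33.1, 32.2 and 26.2, where the difference of 0.71 was called (SE 0.15, limma, adjusted p = 0.0388).

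Before the same promoters E008 gave smaller values. E008+P001-, with the Zfp882 fragment in reverse, had its highest boost index there, 2.21 ± 0.51 (SD, n = 3). It gave 0.905, 1.17 and 1.19, which was 1.42 above P001- alone (SE 0.21, limma, adjusted p = 0.0170). E008+P013-, with the Fam32a fragment in reverse, gave 1.15, 1.11 and 1.25, a difference of 1.62 (SE 0.18, limma, adjusted p = 0.00827). The 7 called pairs involved only the promoter fragments P001, P003, P009 and P013, and 6 of them had E008 in plus orientation. With the Klf2 promoter, E008+P016+ gave 1.68, 1.49 and 1.66, a difference of 0.25 (SE 0.14, limma, adjusted p = 0.305). The lowest boost index was that of E008-P004-, -0.54 ± 0.95, from activities of 0.106, 0.0106 and 0.214, which disagree widely.

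Placed between promoter and reporter, a cCRE of this locus was called below the promoter alone far more often than above it. E007 was mostly above the promoter, and all calls below the promoter but 1 were of a fragment in minus orientation. Over 3987 such constructs of the locus 48.8% were called lower than the promoter alone and 3.79% higher in limma, with a median log2 difference of -1.18. E007 was called higher in 31 and lower in 10 of 52, with a median of 1.58. E008 was called higher in 8 and lower in 16 of 81, with a median of 0.07. E007+ was higher in 9 of 11 and lower in 0, whereas E007- was higher in 22 and lower in 10 of 41. Of the promoters called lower with E007-, only P017+, P019+ and P021+ were also measured with E007+ in this place. E008+ was higher in 8 and lower in 1 of 40, and E008- higher in 0 and lower in 15 of 41. The split depended on the baseline. Against the median construct with the same promoter in the same slot, all 47 calls for E007 and all 35 for E008 were higher, where 11% of all constructs were called higher and 2.33% lower. With the replicate block E008 was higher in 13 of 81, where 6.97% of all constructs were. Leaving out replicate 1 left 17 calls for E007 (14 higher, 3 lower) and 5 for E008 (2 higher, 3 lower). Of all constructs 36.6% were then called in either direction, 0.953% higher and 35.7% lower. Leaving out replicate 2 left 12 for E008 (2 higher, 10 lower), where 47.3% of all were called, 2.83% higher and 44.4% lower.

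P012-E007+ had the highest boost index behind a promoter, 5.72 ± 1.58 (SD, n = 3). It gave 5.87, 4.68 and 3.70, against 0.102, 0.0361 and 0.231 for P012- alone (log2 difference 5.62, SE 0.70, limma, adjusted p = 0.00101). P023+E007+, with the Tmem38a promoter, gave 5.19, 6.42 and 3.88 and lay 4.44 above P023+ alone (SE 0.37, limma, adjusted p = 0.000253). P018-E007+, with the Calr3 start, gave 13.5, 12.3 and 9.39. It lay 2.32 above P018- alone (SE 0.21, limma, adjusted p = 0.000308). All 11 constructs of E007+ in this place lay between 4.26 and 17.1, a range that spans the activity of E007+ alone.

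The lowest boost index of E007 behind a promoter was that of P017+E007-, 0.44 ± 0.09 (SD, n = 3). It gave 2.99, 3.45 and 2.74, against 15.0, 15.0 and 12.2 for P017+ alone, a fall of 2.20 on the log2 scale (log2 difference -2.20, SE 0.19, limma, adjusted p = 0.000274). In the other orientation P017+E007+ gave 18.2, 19.6 and 14.1, which did not differ from P017+ alone by more than the error (0.29, SE 0.21, adjusted p = 0.329 in limma). P003+E007- gave 1.68, 1.98 and 1.77, against 9.63, 9.38 and 7.63 for P003+ alone (-2.29, SE 0.18, limma, adjusted p = 0.000225). E008- behind the same promoter gave 2.83, 2.55 and 2.47 (-1.76, SE 0.18, limma, adjusted p = 0.000483), and E008+ there gave 14.9, 15.1 and 11.2 (0.62, SE 0.21, limma, adjusted p = 0.0539). That P003+E008+ construct had the highest boost index of E008 in any place, 4.73 ± 0.40. The 10 E007- constructs called lower had P003, P014 or P021 in either orientation, or P009+, P017+, P019+ or P022-. The weakest of these promoters alone, P019+, had replicates of 2.16, 2.09 and 2.00. Not every stronger promoter was called lower. P022+, at 18.6 alone, differed by -0.39 with E007- behind it, and P018+, at 3.07 alone, by -0.04.

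With the Klf2 promoter in front, P016+E007- gave 1.5, 1.98 and 1.33, a difference of 0.23 from P016+ alone (SE 0.22, limma, adjusted p = 0.474). P016+E008- gave 0.705, 0.382 and 0.477, which was lower than the promoter alone (-1.42, SE 0.28, limma, adjusted p = 0.00657). P016+E008+ gave 2.39, 1.59 and 2.60 and did not pass the threshold (0.67, SE 0.25, limma, adjusted p = 0.0746).

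In pairs with another cCRE, E007 constructs lay above the partner alone in both slots and both orientations, and most E008 constructs lay close to it. Of 299 E007 pairs, 298 lay above the partner cCRE alone, with a median log2 difference of 3.00, and limma called 103 higher and 0 lower after adjustment over 20445 comparisons. Over all of these, 1.78% were called higher and 0.45% lower, with a median of -0.09. Of 508 E008 pairs, 1 was called higher and 0 lower, with a median of 0.41 and 424 differences above 0. With the replicate number as a block 281 of the E007 pairs and 21 of the E008 pairs were called higher, where 8.89% of all comparisons were, and 0 of E007 and 1 of E008 lower, where 3.16% were. With a variance that depends on the mean activity, 287 and 29 were higher, where 8.54% of all were, and 1 and 2 were lower, where 3.11% were. Leaving out replicate 1 left 0 calls for both fragments and 1 among all 20445 comparisons. At an unadjusted p under 0.05 limma then had 170 and 2, where 3.11% of all comparisons passed. Leaving out replicate 3 gave 177 and 3 calls, where 3.08% of all comparisons were called. Leaving out replicate 2 gave 125 and 0 calls in limma, where 2.65% of all were called. E008 then had 13 at an unadjusted p under 0.05, where 8.54% of all passed.

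The slot next to the reporter and the plus orientation gave the highest E007 pairs. All 31 constructs with E007+ in the second slot were called higher than the partner alone, with a median of 5.58, and their activities ran from 2.84 to 9.04 with a median of 6.29. In the first slot E007+ constructs ran from 0.230 to 7.13 with a median of 0.999 over 128. For E007- the medians were 1.13 over 113 constructs in the second slot and 0.884 over 29 in the first. Expressed as a mean boost index, the second slot gave 5.56 ± 1.19 for E007+ and 3.05 ± 1.01 for E007-, and the first slot gave 2.94 ± 0.89 and 2.64 ± 0.82 (SD over 3 replicates). For E008 the 4 means lay between 0.40 and 0.89.

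E010-E007+ had the highest boost index of any E007 construct, 6.21 ± 1.24 (SD, n = 3), with activities of 7.78, 8.75 and 7.21. E020+E007+ gave 8.60, 8.76 and 6.56, and E095-E007+ gave 7.31, 8.72 and 6.44. These values resemble those of E007+ alone. The lowest second-slot constructs had E007- behind another active cCRE. E011+E007- gave 1.95, 2.73 and 1.93, whose geometric mean of 2.17 lay below that of E011+ alone, 3.15, by 0.54 on the log2 scale, a difference within the error (SE 0.57). E097+E007- gave 3.22, 3.52 and 3.06, a boost index of 0.58 ± 0.06. In the first slot the highest constructs were E007+E008+ (5.49 ± 0.82), E007+E095- (5.14 ± 1.29) and E007+E031+ (5.10 ± 1.23), and the lowest was E007+E030- (0.67 ± 0.26), at 0.732, 0.515 and 0.679.

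For E008 the single called pair was E021+E008+, which gave 3.60, 3.95 and 3.41, a difference of 2.85 from E021+ alone (SE 0.58, limma, adjusted p = 0.0440). E105+E008+ gave 1.73, 2.45 and 2.46, a difference of 2.46 (SE 0.60, limma, adjusted p = 0.0802). E008+E032+, with E008 in the first slot, gave 1.64, 1.68 and 1.62 and lay 3.28 above E032+ alone (SE 0.83, limma, adjusted p = 0.0958). The lowest, E092-E008+, gave 0.0697, 0.00880 and 0.147. The replicates of such weak constructs disagree, with a median SD of log2 activity of 0.72 over 683 E008 constructs against 0.19 over 410 E007 constructs. Another 2 E008 constructs had a replicate at 0 and were left out.

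The same pairs were then set against E007 alone. With E007 in the first slot, the added cCRE lies between it and the reporter. The added fragment and the place of E007 cannot then be told apart. With E007+ in the first slot, all 128 pairs lay below E007+ alone, with a median log2 difference of -3.11. Limma called 84 lower and 0 higher in the same fit. These 84 are among the 92 lower calls over all 20445 comparisons (0.45%), so that share is not a separate background. The median oriented cCRE alone was at 0.120, against 8.61 for E007+ alone. With E007+ in the second slot 30 of 31 pairs lay below it, but the median was -0.45 and 0 were called, with 1 at an unadjusted p under 0.05. For E007- 0 were called in either slot, with 12 of 29 and 10 of 113 at an unadjusted p under 0.05. With the replicate block the calls were 122 and 1 lower for E007+ in the first and second slot, and 14 of 29 and 15 of 113 lower for E007-, where 3.16% of all comparisons were. These calls are part of that 3.16%. With E007+ in the first slot 84 were lower without replicate 2, 75 without replicate 3 and 0 without replicate 1, with 75 at an unadjusted p under 0.05 in limma. Over all comparisons, these included, 108, 100 and 0 were then called lower.

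Activities of constructs were also set beside the sum of the activities of their fragments alone. With E007+ in the first slot of a cCRE pair, 0 of 127 constructs exceeded that sum, with a median log2 ratio of -3.12, and with E007+ in the second slot 1 of 31 did, with a median of -0.47. Before promoters E007+ exceeded the sum in 2 of 45 constructs (median -1.26), and E007- in 10 of 12 (median 0.48). The promoters differed between these groups, so the counts do not compare the orientations. With the 12 promoters measured in both orientations, the E007+ construct was the more active with 10 and the less active with 2. How often constructs of other cCREs exceeded the sum is not given here. Across partners, Pearson's r between the log2 activity of the construct and that of the partner alone was 0.88 for E007+ before 45 oriented promoters and 0.98 for E008+ before the same number. It was 0.37 for E007+ behind 31 oriented cCREs and 0.85 for E008+ behind 106. These correlations describe constructs that share 1 fragment and the same transfections.

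Of the constructs measured, 6 hold both fragments, and all lay within 1.38 of E007 alone in the same orientation on the log2 scale. E008+E007+ gave 9.31, 10.1 and 7.87, which was 0.07 ± 0.04 above E007+ alone (SD, n = 3). E007+E008+, the order of the fragments along the chromosome, gave 7.28, 7.97 and 6.25, a difference of -0.27 ± 0.05. E007+E008- gave 3.25, 3.75 and 2.98, a fall of 1.38, or a difference of -1.38 ± 0.09 (SE 0.57 and adjusted p = 0.387 in limma). With E007-, the constructs E008+E007-, E008-E007- and E007-E008- differed from E007- alone by 0.57 ± 0.03, -0.28 ± 0.12 and -0.44 ± 0.14. None of the 6 was called against E007 alone in limma, where the smallest adjusted p was 0.387. Against E008 alone, E007+E008+ was called higher by 5.13 (SE 0.62, limma, adjusted p = 0.0159).

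The fragments were next compared with each other in every context that both share, which is the same partner in the same orientation and place with the cCRE in the same orientation. E007 lay above E008 in 391 of 401 contexts, with a median log2 difference of 2.34. Limma called 228 higher for E007 and 0 lower, with adjustment over 15298 matched contexts of cCREs that follow each other along the locus. Over these, the first fragment was called higher in 5.04% and lower in 4.82%. With the replicate block the counts were 271 and 1, against 7.47% and 6.84% of all contexts. With a variance that depends on the mean activity they were 361 and 7, against 12.3% and 11.4% of all contexts. Leaving out replicate 1 or 2 left 0 calls here and 0 among all 15298 contexts. At an unadjusted p under 0.05 limma then had 193 and 282 contexts of this pair, against 8.36% and 15.2% of all contexts. Leaving out replicate 3 left 129 calls, against 5.12% of all contexts.

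The size of the difference varied among the groups of contexts formed by place and strand. The partners differed between these groups, so whether place or strand by itself changed the size was not tested. Before promoters the mean log2 activity of E008 was -0.34 over the plus contexts and 0.94 over the minus contexts. The difference was 4.91 ± 0.85 (SD, n = 3) in 30 contexts with a plus fragment in the second slot of a cCRE pair. It was 2.57 ± 0.85 in 109 with a minus fragment there. In the first slot it was 2.00 ± 0.46 over 125 plus and 2.20 ± 0.53 over 28 minus contexts. Before promoters it was 2.00 ± 0.40 over 45 plus and 1.41 ± 0.10 over 12 minus contexts, and behind promoters 1.96 ± 0.26 over 11 plus and 1.54 ± 0.58 over 41 minus contexts. With the Klf2 promoter P016+ behind the fragment, E007+ exceeded E008+ by 2.54 (SE 0.32, limma, adjusted p = 0.0132).

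The 10 contexts in which E008 lay higher were 7 with a minus fragment behind a promoter, 2 with a plus fragment in the first slot and 1 with a minus fragment in the second. The largest was behind P017+, where E008- exceeded E007- by 1.15 (difference -1.15, SE 0.33, limma, adjusted p = 0.0924). Among 83 neighbouring cCRE pairs of the locus, E007 and E008 ranked 6th by the size of the median difference. Of the 4 neighbouring pairs that overlap, they had the largest. E005 and E006 (96 bp shared) differed by a median of 0.06, E020 and E021 (274 bp shared) by -0.80, and E091 and E092 (79 bp shared) by 0.12.

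Strand was compared within each fragment, with the same partner and place. E007+ exceeded E007- by 2.26 ± 0.18 on the log2 scale (SD, n = 3) over 31 partners in the second slot of cCRE pairs, and by 1.96 ± 0.16 over 11 promoters when placed behind them. It was higher with every one of these partners. The difference was 0.47 ± 0.06 over 12 promoters when placed before them and 0.28 ± 0.03 over 29 partners in the first slot, where it was higher with 10 and 20 partners. For each of these 4 means the two-sided exact permutation test gave p = 0.10, the smallest possible. For E008 the same order of places gave 0.16 ± 0.14 over 105 contexts, 0.79 ± 0.14 over 40, 0.16 ± 0.04 over 44 and 0.49 ± 0.20 over 131, with exact p-values of 0.70, 0.20, 0.70 and 0.40. These tests ignore that both strands were measured in the same transfections. Each of the E008 means was above 0 in all 3 replicates.

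Tested construct by construct in limma, strand gave 0 calls among the 83 E007 contexts and 0 among the 320 E008 contexts, and 0.04% of all 9998 contexts of the locus were called. At an unadjusted p under 0.05 there were 51 E007 contexts, among them all 31 in the second slot and all 11 behind promoters, and 43 of the 320 E008 contexts. Over the locus 1010 of 9998 contexts passed, or 10.1%, and the E008 share is near that background. With a variance that depends on the mean activity, 58 E007 contexts were called higher in plus orientation and 2 lower, and 51 E008 contexts higher and 1 lower. Over all contexts 7.31% were then called higher and 4.71% lower. That fit takes the error from the trend alone and gives no weight to the spread of the construct itself. The replicate block gave 0 calls for both fragments and 0 among all 9998 contexts of the locus. At an unadjusted p under 0.05 limma with the block had 60 of the 83 E007 contexts and 85 of the 320 E008 contexts. Over the locus 23.0% of contexts then passed.

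Position relative to the promoter was compared for the same cCRE, promoter and orientations. Over the locus 48.6% of 2575 such contrasts were higher with the cCRE before the promoter and 1.2% lower, with a median log2 difference of 1.03. E007- was higher before the promoter in 10 of 12 contrasts and lower in 0, with a mean difference of 1.38 ± 0.06 (SD, n = 3). E007+ was higher in 1 and lower in 3 of 11, with a mean of -0.27 ± 0.08. E008- was higher in 16 and lower in 0 of 41 (mean 0.57 ± 0.12), and E008+ higher in 4 and lower in 3 of 40 (mean -0.05 ± 0.03). The largest difference for E007- was with the promoter of Rab8a, a small GTPase of membrane traffic, where E007-P009+ exceeded P009+E007- by 2.54 (SE 0.23, limma, adjusted p = 0.000511). The largest in the other direction was with P012-, where E007+ behind the promoter exceeded E007+ before it by 2.46 (difference -2.46, SE 0.23, limma, adjusted p = 0.000511). Leaving out replicate 1 left calls in 6 of 23 E007 contrasts and 2 of 81 E008 contrasts, where 25.6% of all contrasts were called. Leaving out replicate 2 left 9 and 13, where 39.8% of all were. Counted in either direction, the E007 shares are near those backgrounds, and the E008 shares lie below them. By direction, E007 had 4 higher and 2 lower without replicate 1, and 7 higher and 2 lower without replicate 2. E008 had 0 lower in both fits. Of all contrasts 25.4% were called higher and 0.194% lower without replicate 1, and 39.1% and 0.699% without replicate 2. In the lower direction the E007 share is above these, but it rests on 2 of 23 contrasts.

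Downstream of the reporter the same fragments gave values in a narrower range, described here without a test of level because they chose the pair. Over 10 promoters and both orientations the mean boost index was 1.01 ± 0.04 for E007 and 0.71 ± 0.05 for E008 (SD, n = 3). The cCREs nearest to them in rank were E006, 2nd at 0.83, and E046, 4th at 0.67. Boost indices of single constructs ran from 0.37 to 1.58 for E007 and from 0.20 to 1.26 for E008. In each fragment 3 of 20 constructs exceeded the highest shuffled or random control in the same promoter vector. Of these 3, the Zfp882 vector P001 gave 2 for each fragment, and it has 10 controls where the other promoter vectors have 32 to 40. E008+ in that vector lay above its controls but not above the vector without insert (log2 difference -0.02). E007 exceeded the vector without insert in 19 of 20 constructs and E008 in 17 of 20. The shares of all inserts that pass these bars are not given here, so the counts do not set the pair apart. E007 lay above E008 in 17 of 20 matched vectors and orientations, and in all 3 replicates in 15, by a mean of 0.29 on the log2 scale.

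In the Klf2 promoter vector, E007- gave 1.90, 2.53 and 2.30, E007+ gave 1.24, 1.79 and 1.51, E008- gave 1.36, 2.24 and 2.10, and E008+ gave 0.981, 1.65 and 1.49. The vector without insert had a mean of 1.07. All replicates of E007-, E007+ and E008- lay above that mean, and those of E008+ on both sides of it. Replicate 1 was the lowest for each of these constructs, and single replicates of the vector are not given here. The boost index of E008+ in this vector was 0.59, 0.68 and 0.70 in the 3 replicates. Among the promoter vectors, the largest gap between the fragments was with the Zfp882 promoter and the fragments in plus orientation, where E007+ gave 0.613, 0.592 and 0.735 and E008+ gave 0.286, 0.345 and 0.417. The gap was 0.90 ± 0.18 (SD, n = 3). With P009 and the fragments in minus orientation, E008 was the higher by a small margin, with a difference of -0.08 ± 0.09.

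The minus orientation was the higher one Downstream, for both fragments and in all 11 vectors. Averaged over the 10 promoter vectors, E007- exceeded E007+ by 0.55 ± 0.04 on the log2 scale, or 1.47-fold, and E008- exceeded E008+ by 0.57 ± 0.05, or 1.48-fold (SD, n = 3; exact permutation p = 0.10 each, the smallest possible). Limma called the minus orientation higher in 9 of 11 vectors for E007 and 8 of 11 for E008, where 18.7% of the 1083 contrasts of this assay were called in that direction and 20% in the other. The mean boost index of E007- was 1.28 ± 0.06, 1st of 74 ranked cCREs in minus orientation, and that of E007+ was 0.73 ± 0.03, 4th of 73 in plus orientation. For E008 the ranks were 3rd in minus orientation, at 1.00 ± 0.05, and 12th in plus orientation, at 0.43 ± 0.06.

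The largest strand difference Downstream was with P022, whose reverse holds the Smim7 start, where E007- gave 8.77, 7.79 and 8.85 and E007+ gave 4.12, 3.88 and 4.12. The vector without insert had a mean of 4.14, so that E007+ lay at its level and E007- above it. The difference between the strands was 1.07 (SE 0.10, limma, adjusted p = 0.000147). With P009 (Rab8a) and P019, whose reverse holds the start of Cherp, the strands of E007 differed by 0.13 in each case, and limma did not call them (adjusted p = 0.405 and 0.346). For E008 the vectors not called were those of P016, P022 and the vector without promoter (adjusted p = 0.171, 0.0801 and 0.509 in limma). Leaving out replicate 2 left 5 calls for E007 and 4 for E008, where 10.1% of all contrasts were called in that direction. Leaving out replicate 3 left 5 for E007, where 10.9% were. With the replicate block all 11 vectors were called for each fragment, where 37.1% of all contrasts were called in that direction.

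In the vector without promoter, E007 was among the most active inserts in both orientations. E007- gave 0.551, 0.728 and 0.688 and ranked 3rd of 137 oriented cCREs, and E007+ gave 0.371, 0.494 and 0.456 and ranked 9th. E008- gave 0.169, 0.340 and 0.330 and E008+ 0.131, 0.284 and 0.262, which overlap, with ranks of 19th and 31st. E007 exceeded E008 here by 1.29 ± 0.36 in minus and 1.03 ± 0.40 in plus orientation on the log2 scale (SD, n = 3). The empty vector had a mean of 0.145, the median cCRE was at 0.142, and the 39 controls ran from 0.0433 to 0.532 with a median of 0.0814. Of the 4 member constructs, the mean of E007-, 0.651, was the only one above the highest control.

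The 10 promoters of the Downstream assay were also measured Upstream, so the values can be set side by side, although vectors and transfections differ. Before these promoters E007+ lay above the promoter alone by 0.62 to 2.79 on the log2 scale, with a median of 1.51. E007- was measured before only 4 of them and lay 0.33 to 1.74 above the promoter alone, with a median of 1.29. Behind the reporter E007+ differed from the vector without insert by -0.04 to 1.17, with a median of 0.34, and E007- between 0.50 and 1.30 above it, with a median of 1.00. For E008+ the ranges were -0.06 to 0.82 before the promoter (median 0.17) and -0.12 to 0.37 behind the reporter (median 0.10). For E008- they were -0.08 to 0.46 (median 0.27) before the promoter and 0.19 to 1.05 (median 0.73) behind the reporter.

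Ranked by mean boost index over partners, E007 was 1st of 79 cCREs before promoters, at 2.52 ± 0.52 (SD, n = 3), and 1st of 81 behind promoters, at 2.90 ± 0.76. In cCRE pairs it was 2nd in the first slot at 2.88 ± 0.88 and 3rd in the second at 3.59 ± 1.05. The other fragments at the top of these lists were E097 and E011, with 1.82 and 1.38 before promoters. E008 ranked 10th before promoters at 0.57 ± 0.17, 8th behind them at 1.41 ± 0.26, and 12th and 18th in the first and second slot of pairs. For E007 replicate 2 gave the highest and replicate 3 the lowest of these means in each of the 4 places.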

How the data were processed

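The values used are the activities of 3 biological replicates of cDNA for the mix of Klf2, Nanog and negative control Upstream libraries and 3 for the Downstream mix. The activity that the authors deposited is a linear ratio of cDNA to pDNA barcodes, and their index is on a log2 scale in the deposited tables. Bowtie2 and mm10 are named in the submitters' processing notes. Barcode filters and the scaling of an activity of 1 are not given in the sources used here, and 22 value columns given to no sample were not used for results. Plus and minus are the orientations in the tables, and coordinates are as deposited.

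The boost index was recomputed as the log2 geometric mean minus that of the median construct sharing partner, orientation and slot. With a tolerance of 0.001 it equalled the deposited index for all 3685 finite Upstream pairs of a cCRE before a promoter in the Klf2 locus (of 3758) and all 2364 Downstream constructs. For places with no deposited index the same definition was applied. Fits left out any construct with a replicate at 0.

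For tests, log2 activities entered limma 3.58.1 (R 4.3.3, lmFit and eBayes), with 3 replicates of a construct against 3 of its baseline, two-sided. Benjamini-Hochberg adjustment ran over all constructs of the Klf2 locus in a comparison, or all Downstream inserts, at 0.05. The fit was tested on simulated data. Means over partners were compared by two-sided exact permutation tests, 3 against 3, unpaired. Python 3.11.15, numpy 2.4.6, pandas 2.3.3 and scipy 1.17.1 were used. Both arms of a contrast come from the same transfections, so replicate numbers pair them by construction; the fit with the number as a block is an alternative. Other alternatives left out each replicate, kept constructs at 0 with a pseudocount of 0.01, changed the baseline, and let the prior variance follow the mean, the last added after the data were seen. Replicates share 1 plasmid pool, so errors leave out differences between barcoded plasmids.

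The constructs named are those of each fragment alone and in the vector without promoter, the 3 with the highest and the 3 with the lowest boost index per fragment and slot, those with the Klf2 promoter or the 10 Downstream promoters, and those with both fragments; not every one is printed. Any other construct named, such as the extremes of a contrast, was chosen after its values were seen. Members, motifs and lists were chosen with earlier results of these data known. The 15 shuffled and 5 random control sequences were used as background Downstream only.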

Additional observations from a re-analysis of the deposited data

Results flagged for a closer look

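The strand with the higher mean activity was opposite in the 2 assays, in every replicate, for both fragments. Downstream, plus minus minus was -0.55 for E007 and -0.57 for E008 on the log2 scale (means over 10 promoter vectors). Upstream, the same difference for E007 was 2.28 alone, 0.47 before promoters, 1.96 behind promoters, 0.28 in the first slot of cCRE pairs and 2.26 in the second. For E008 it was 0.23 alone, 0.16 before promoters, 0.79 behind promoters, 0.49 in the first slot and 0.16 in the second. The Upstream values of E008 fell to 0.02 in replicate 3 in the second slot. Their unpaired exact permutation tests gave p from 0.20 to 0.70. For E007 in the first slot, 9 of 29 contexts had the minus orientation higher. How many other cCREs show opposite strands is not given here. The difference between the assays was not tested, since they are separate mixes and transfections. How the tables define orientation for an insert downstream of the reporter is not given in the sources used here.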

How the results depend on the processing

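Counts are calls at an adjusted p of 0.05 in limma, E007 first. Leaving out 1 replicate gave 0 to 0 and 0 to 0 calls before promoters (48 and 7 with all replicates), 17 to 37 and 5 to 25 behind promoters (41 and 24), 0 to 177 and 0 to 3 in cCRE pairs (103 and 1), and 0 to 129 for E007 against E008 (228). Strand gave 0 to 0 for both Upstream (0 and 0) and 5 to 8 and 4 to 9 Downstream (9 and 8), and position 6 to 14 and 2 to 18 (14 and 23). Over the whole locus the fits without 1 replicate called 0 of 3685 pairs before promoters and 0 of 9998 Upstream strand contexts. Without replicate 1 they called 1 of 20445 cCRE pair comparisons and 0 of 15298 contexts of neighbouring cCREs. For position they called 25.6% to 49.4% of all contrasts. With the replicate block, E008 had 13 calls before promoters, and cCRE pairs had 281 and 22; strand Downstream had 11 and 11. Among these totals the block moved no other by over 1.5 times, but it raised the higher calls of E008 behind promoters from 8 to 13, and the lower calls against E007 alone as given above. Against the median construct, E008 had 15 calls before promoters and E007 had 61 in cCRE pairs. All of these were higher, where 4.83% and 1.15% of all constructs were called higher. With the variance trend, added after the data were seen, E008 had 15 before promoters, cCRE pairs had 288 and 31, E007 against E008 368, and Upstream strand 60 and 52. The 15 were all higher, where 7.46% of all pairs before promoters were called higher and 24.1% lower. Over the locus that fit called 11.6% of cCRE pair comparisons, 23.7% of contexts of neighbouring cCREs and 12% of strand contexts. The prior degrees of freedom of the variance trend were infinite in all of these fits, so a construct's own spread had no weight. With constructs at 0 kept by a pseudocount, cCRE pairs of E007 had 145 calls and E007 against E008 had 233. The other counts were equal to those without it, and the mean boost indices moved by less than their SD. Leaving out 1 replicate moved the mean boost index of E007 to 2.23 to 2.77 before promoters, 2.49 to 3.25 behind them, 2.40 to 3.31 and 3.02 to 4.11 in the first and second slot of pairs, and 0.98 to 1.03 Downstream. For E008 these were 0.45 to 0.65, 1.26 to 1.53, 0.42 to 0.81, 0.37 to 0.65 and 0.69 to 0.74. Medians over partners gave 1.07 for E008 behind promoters, and 1.09 and 0.62 Downstream. With controls as basal activity the Downstream means were 1.17 and 0.88, and with the vector without insert 0.70 and 0.41. The cause of these moves was not tested. No listed alternative was left out. Depth per construct is unknown, and replicates disagree most at low activity, which limits E008 more than E007.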
